A study of Homo sapiens with 24 samples.

Results

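Knockdown of ARID1A was set directly against knockdown of ERG in VCaP cells, using the 2 shARID1A and the 2 shERG libraries of a series of 24 RNA sequencing libraries. VCaP is a human prostate cancer line, grown from a metastasis, that carries the TMPRSS2-ERG fusion. Every group compared here carries that fusion. In the knockdown groups a lentiviral short hairpin RNA was directed at ARID1A or at ERG, and 2 libraries with the control hairpin, shCt, served as a common baseline. Virus was left on the cells for 48 h, puromycin selection ran for 8 days, and the duplicates of a group were infected, selected and grown independently. The labels do not separate different hairpins for a target, so a change caused by the hairpin and a change caused by loss of its target cannot be told apart.

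ARID1A is the large DNA-binding subunit that defines the canonical BAF (mammalian SWI/SNF) complex, which slides and ejects nucleosomes with the energy of ATP. ERG is an ETS transcription factor that is silent in normal prostate epithelium and is placed under the androgen-responsive TMPRSS2 promoter by the fusion. The study asks how ERG and BAF complexes act together on chromatin. The direct contrast shows which genes differ between cells given the ARID1A hairpin and cells of the same line given the ERG hairpin.

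Libraries held 23288024 to 30831975 reads counted over genes, and 16791 of 26346 genes had enough reads to be tested. Values are read counts scaled to a common total by TMM (CPM), a scale that adjusts library totals for their composition. A log2 difference is shARID1A minus shERG. The value after ± is an approximate standard error, the size of the log2 difference divided by the square root of the test's F value. It is too small where a group has few reads. A gene was called at an adjusted p below 0.05 in edgeR's quasi-likelihood test with Benjamini-Hochberg adjustment. All 10 luminal prostate markers examined were present in every library. Their summed level was 11170 and 11590 CPM in shARID1A cells, 9195 and 9536 CPM in shERG cells, and 13900 and 14500 CPM in shCt cells, scaled here by library totals. Leukocyte and endothelial markers summed to at most 3.65 and 1.46 CPM, with the endothelial cadherin CDH5 at 0 reads in every library. Fibroblast markers summed to 14.4 and 17.1 CPM in shARID1A cells and 81.1 and 82.5 CPM in shERG cells, with LUM and COL1A1 supplying most of it in shERG cells and COL1A2 at 0 reads throughout. PDGFRA went the other way, at 4.47 and 4.29 CPM in shARID1A cells and 1.82 and 1.63 CPM in shERG cells.

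Each hairpin lowered its own target, and the contrast reads both at once. ERG measured 246 and 240.4 CPM in shARID1A cells, against 75.2 and 82.5 CPM in shERG cells (log2 difference 1.63 ± 0.05, edgeR adjusted p = 2.36e-17), while shCt cells had 352 and 373 CPM. ERG was therefore 3.09-fold higher in the ARID1A knockdown, but it was also called below shCt there, with a log2 difference from shCt of -0.58. ARID1A measured 73.0 and 75.9 CPM in shARID1A cells, against 217 and 232 CPM in shERG cells (log2 difference -1.59 ± 0.05, edgeR adjusted p = 1.6e-17), with 268 and 263 CPM in shCt cells. ARID1A was also called below shCt in shERG cells, with a log2 difference from shCt of -0.24. Neither target's libraries overlapped between the groups, as held for 85.9% of all genes tested.

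Of the 16791 genes, 12262 were called, which is 73.0%, with 36.8% higher and 36.2% lower in shARID1A cells. A change of at least 2-fold was reached by 24.6%, with 2411 genes (14.4%) higher and 1726 (10.3%) lower. With library totals in place of TMM, 5288 genes were higher and 7181 lower, and at least 2-fold 2093 were higher and 2102 lower. With 73.0% of all genes called, a list with most of its members called is usual. For lists called mostly in 1 direction no set test was run. The lists were written with earlier results of these data known. Against the shared shCt libraries, shARID1A cells had 66.1% of genes called and shERG cells 66.7%. In shERG cells 4923 genes (29.3%) were higher and 6280 (37.4%) lower than in shCt cells, and this split became 6998 higher and 4566 lower when library totals replaced TMM.

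**Figure D1:**
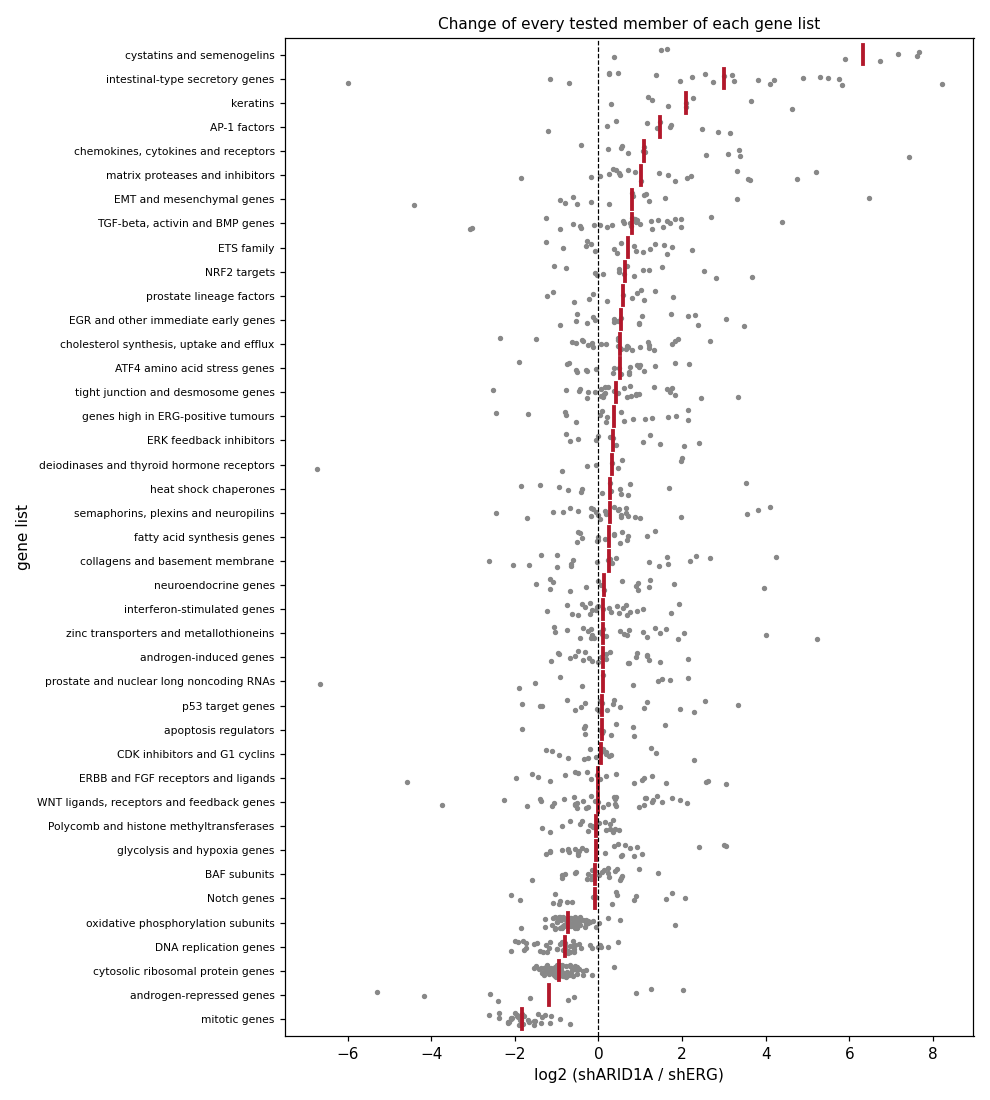
Log2 difference, shARID1A over shERG, of every tested member (grey points) of 41 gene lists, with the list median as a red bar and the median of all genes as a dashed line. Fitted medians ran from 6.32 for cystatins and semenogelins down to -1.84 for mitotic genes, with ribosomal protein genes packed around -0.94.

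The genes furthest apart on the high side were of varied function. SLPI, a secreted inhibitor of leukocyte proteases, had 84.1 and 76.9 CPM in shARID1A cells, against 1.15 and 0.836 CPM in shERG cells (log2 difference 6.32 ± 0.12, edgeR adjusted p = 1.58e-21), a 79.9-fold difference. In shCt cells SLPI stood between them at 11.6 and 11.1 CPM. CDC42EP5, an effector of the CDC42 GTPase that shapes the actin and septin skeleton, had 30.3 and 33.0 CPM in shARID1A cells, against 0.120 and 0.254 CPM in shERG cells (log2 difference 7.41 ± 0.19, edgeR adjusted p = 6.32e-19). NRAP, a muscle protein that anchors actin, had 31.9 and 35.8 CPM in shARID1A cells, against 0.422 and 0.400 CPM in shERG cells (log2 difference 6.34 ± 0.16, edgeR adjusted p = 4.3e-19). Groups that did not overlap were a condition for naming these 3 genes, and 85.9% of all genes tested met it.

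Cytochrome P450 and UGT genes were also among those furthest apart. CYP4X1, a cytochrome P450 of the fatty acid hydroxylase family, had 113 and 119.7 CPM in shARID1A cells, against 1.45 and 1.64 CPM in shERG cells (log2 difference 6.24 ± 0.12, edgeR adjusted p = 2.49e-21). CYP4F12, which hydroxylates fatty acids, had 36.8 and 43.2 CPM in shARID1A cells, against 0.602 and 0.545 CPM in shERG cells (log2 difference 6.10 ± 0.15, edgeR adjusted p = 1.93e-19), with 26.5 and 26.0 CPM in shCt cells. CYP4Z1 differed by 72.6-fold, and 24.6% of the 75-base windows of its transcript also occur in that of its pseudogene CYP4Z2P, so its reads are uncertain. UGT1A1, the enzyme that couples bilirubin and steroids to glucuronic acid, had 1007 and 1285 CPM in shARID1A cells, against 15.9 and 17.3 CPM in shERG cells (log2 difference 6.11 ± 0.09, edgeR adjusted p = 2.08e-22). The counts listed for UGT1A8, UGT1A9 and UGT1A10 differed by 61.1-fold to 61.3-fold, but these genes share their last exons, and 63.9% to 66.9% of the windows of their transcripts occur in another member. They were read as 1 locus, and the value of UGT1A1 also stands in part for it, since 33.7% of the windows of UGT1A1 occur in another member.

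The genes furthest apart on the low side were also of varied function. PLOD2, the lysyl hydroxylase that prepares collagen for cross-linking, had 11.3 and 15.1 CPM in shARID1A cells, against 158 and 159 CPM in shERG cells (log2 difference -3.60 ± 0.09, edgeR adjusted p = 5.28e-19), with 34.8 and 27.7 CPM in shCt cells. LUM, the keratan sulfate proteoglycan lumican that spaces collagen fibrils, had 1.42 and 1.39 CPM in shARID1A cells, against 52.6 and 56.3 CPM in shERG cells (log2 difference -5.27 ± 0.11, edgeR adjusted p = 1.69e-20). In bulk RNA fewer cells of a type and less RNA per cell cannot be told apart. TMEFF2, a transmembrane protein with an EGF-like domain that is abundant in prostate and brain, had 19.1 and 16.4 CPM in shARID1A cells, against 190.2 and 218 CPM in shERG cells (log2 difference -3.52 ± 0.08, edgeR adjusted p = 2.79e-20). UGT8, which makes galactosylceramide for myelin, had 2.16 and 1.95 CPM in shARID1A cells, against 18.8 and 22.9 CPM in shERG cells (log2 difference -3.33 ± 0.14, edgeR adjusted p = 3.3e-15). CAMKV, a calmodulin-binding pseudokinase of neurons, had 1.56 and 0.693 CPM in shARID1A cells, against 33.7 and 43.1 CPM in shERG cells (log2 difference -5.03 ± 0.18, edgeR adjusted p = 1.01e-16), and shCt cells, at 39.7 and 41.8 CPM, resembled the shERG libraries in level.

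Several of these genes departed from control in opposite directions in the 2 knockdowns, and both comparisons use the same shCt libraries. SLPI had a log2 difference from shCt of 2.83 in shARID1A cells and -3.49 in shERG cells. UGT1A1, with the shared exons of its locus, had 2.07 in shARID1A cells and -4.04 in shERG cells. In the other direction, PLOD2 had -1.26 in shARID1A cells and 2.35 in shERG cells, TMEFF2 -2.44 in shARID1A cells and 1.08 in shERG cells. LUM had -4.17 in shARID1A cells and 1.10 in shERG cells. All 10 of these differences were called, beside 66.1% of all genes in shARID1A cells and 66.7% in shERG cells. These genes were chosen for a large difference between the knockdowns, a choice that favours opposite directions. PLOD2, TMEFF2 and LUM were also picked for their opposite calls. The share of all genes with opposite calls was not counted.

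**Figure D2:**
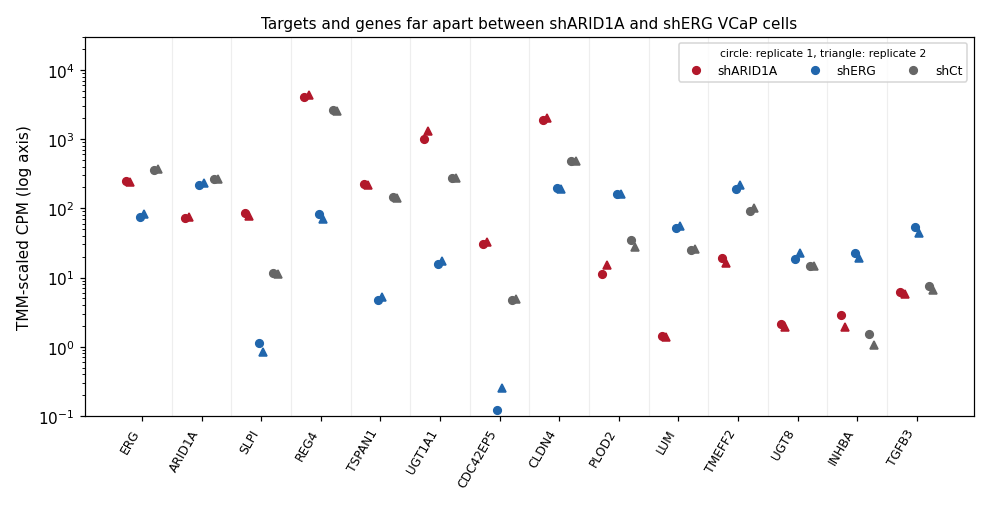
TMM-scaled CPM on a log axis in each of the 6 VCaP libraries for both targets and 12 genes that lay far apart, with shARID1A left, shERG in the middle and shCt right of each gene, circles for replicate 1 and triangles for replicate 2. SLPI sits at 84.1 and 76.9 CPM in shARID1A cells and 1.15 and 0.836 CPM in shERG cells, and PLOD2 lies the other way round.

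Among the BAF subunits themselves, 10 of 27 tested were higher and 9 lower in shARID1A cells, 8 were not called, and the median log2 difference was -0.08 against -0.01 for all genes. Besides ARID1A, only ACTL6B passed 2-fold in this list. ACTL6B, the actin-like subunit of neuronal BAF complexes, had 9.57 and 9.05 CPM in shARID1A cells, against 3.43 and 3.52 CPM in shERG cells (log2 difference 1.42 ± 0.13, edgeR adjusted p = 3.06e-09). In shCt cells ACTL6B had 10.77 and 10.19 CPM, and it was called below shCt in shERG cells but not called in shARID1A cells. Its ubiquitous counterpart ACTL6A had 19.6 and 21.5 CPM in shARID1A cells, against 36.0 and 35.9 CPM in shERG cells (log2 difference -0.81 ± 0.07, edgeR adjusted p = 1.23e-09). SMARCA4, the ATPase BRG1, had 124 and 126 CPM in shARID1A cells, against 227 and 231 CPM in shERG cells (log2 difference -0.87 ± 0.05, edgeR adjusted p = 9.51e-14), with 164 and 161 CPM in shCt cells, so it was above shCt after ERG knockdown and below it after ARID1A knockdown. Between the knockdowns the alternative ATPase SMARCA2 ran the other way, at 121 and 110.4 CPM in shARID1A cells, against 79.4 and 79.6 CPM in shERG cells (log2 difference 0.54 ± 0.05, edgeR adjusted p = 4.77e-09). Its shCt level was 118.9 and 114.2 CPM, and it was called below shCt in shERG cells but not called in shARID1A cells. ARID1B, the paralogue that takes the place of ARID1A in some BAF complexes, had 112 and 102 CPM in shARID1A cells, against 74.8 and 74.8 CPM in shERG cells (log2 difference 0.52 ± 0.05, edgeR adjusted p = 1.5e-08). SMARCD3, a subunit of muscle and heart complexes, had 19.4 and 21.4 CPM in shARID1A cells, against 38.4 and 36.4 CPM in shERG cells (log2 difference -0.88 ± 0.09, edgeR adjusted p = 1.36e-08). In shCt cells SMARCD3 had 10.4 and 13.85 CPM, and it was called above shCt in both knockdowns. For PBRM1 and ARID2, which mark the PBAF form, the log2 differences were -0.27 ± 0.05 and -0.19 ± 0.05. SMARCB1, the core subunit SNF5, was not called at 55.2 and 60.7 CPM in shARID1A cells, against 59.4 and 68.9 CPM in shERG cells (log2 difference -0.15 ± 0.07, edgeR adjusted p = 0.0533).

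ETS factors also separated the groups, with 11 of 18 higher, ERG among them, 4 lower and 3 not called. ELF3, the epithelium-specific ETS factor, had 365 and 365 CPM in shARID1A cells, against 78.6 and 76.0 CPM in shERG cells (log2 difference 2.24 ± 0.05, edgeR adjusted p = 4.4e-20), and shCt cells had 157 and 170.4 CPM. SPDEF, an ETS factor of secretory and luminal prostate cells, had 283 and 291 CPM in shARID1A cells, against 82.6 and 87.6 CPM in shERG cells (log2 difference 1.75 ± 0.05, edgeR adjusted p = 1.41e-18), with 373 and 378 CPM in shCt cells. ETS2 had 15.8 and 18.9 CPM in shARID1A cells, against 8.04 and 8.50 CPM in shERG cells (log2 difference 1.06 ± 0.11, edgeR adjusted p = 1.41e-08). ERF, an ETS repressor that ERK signalling drives out of the nucleus, was the exception past 2-fold at 30.7 and 30.8 CPM in shARID1A cells, against 72.2 and 73.8 CPM in shERG cells (log2 difference -1.25 ± 0.06, edgeR adjusted p = 2.46e-14). In shCt cells ERF had 33.9 and 33.0 CPM, close to the shARID1A level.

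Prostate lineage factors did not move as a block. FOXA1, a pioneer factor that opens chromatin at prostate enhancers, differed by 0.20 ± 0.05 on the log2 scale. GATA2, a zinc finger factor that also acts at prostate enhancers, had 1365 and 1405 CPM in shARID1A cells, against 400.3 and 403 CPM in shERG cells (log2 difference 1.79 ± 0.05, edgeR adjusted p = 6.4e-19). HOXB13, the homeobox factor of prostate identity, had 680.5 and 677 CPM in shARID1A cells, against 312 and 328 CPM in shERG cells (log2 difference 1.09 ± 0.04, edgeR adjusted p = 1.34e-15). SOX4, an SRY-related factor raised in many carcinomas, had 179 and 169 CPM in shARID1A cells, against 368 and 369.7 CPM in shERG cells (log2 difference -1.08 ± 0.05, edgeR adjusted p = 2.5e-15), and its shCt level was 164 and 166 CPM. Of the 13 lineage factors tested, 8 were higher, 4 lower and 1 was not called.

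Classical androgen-induced genes were split, with 12 of 24 higher, 10 lower, 2 not called and a median of 0.12. TRPM8, the cold-sensing calcium channel of prostate epithelium, had 1131 and 1107 CPM in shARID1A cells, against 241 and 264 CPM in shERG cells (log2 difference 2.15 ± 0.05, edgeR adjusted p = 1.16e-19). KLK3, which encodes PSA, had 369 and 393 CPM in shARID1A cells, against 220.2 and 239.5 CPM in shERG cells (log2 difference 0.73 ± 0.05, edgeR adjusted p = 8.91e-12), and both knockdowns lay below shCt cells at 1006 and 987 CPM. FKBP5, a cochaperone of HSP90, had 49.4 and 56.2 CPM in shARID1A cells, against 112 and 120.3 CPM in shERG cells (log2 difference -1.14 ± 0.06, edgeR adjusted p = 1.1e-13). TMPRSS2, whose promoter drives the fusion, was not called, with 305 and 284 CPM in shARID1A cells, against 288 and 303 CPM in shERG cells (log2 difference 0.00 ± 0.05, edgeR adjusted p = 0.956). Androgen-repressed genes leaned lower, with 7 of 10 lower and 3 higher. OPRK1, the kappa opioid receptor, had 9.57 and 7.71 CPM in shARID1A cells, against 41.3 and 50.9 CPM in shERG cells (log2 difference -2.40 ± 0.11, edgeR adjusted p = 8.35e-15), with 5.51 and 5.88 CPM in shCt cells. UGT2B17, which inactivates testosterone by glucuronidation, had 10.3 and 10.8 CPM in shARID1A cells, against 33.1 and 32.0 CPM in shERG cells (log2 difference -1.63 ± 0.09, edgeR adjusted p = 3.38e-13). The median of this list was 0.30 for shARID1A and 1.45 for shERG against the shCt libraries that both comparisons share. UGT2B members have near-identical sequence, and the authors' counting may have split their reads.

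Epithelial surface and secretory genes were higher after ARID1A knockdown than after ERG knockdown. All 9 keratins tested were higher, 8 of them by at least 2-fold, and 5 of the 14 listed were below the filter. KRT8, the keratin of simple epithelia, had 1304 and 1460 CPM in shARID1A cells, against 319 and 323 CPM in shERG cells (log2 difference 2.10 ± 0.05, edgeR adjusted p = 3.99e-19), and its partner KRT18 had 410.5 and 436 CPM in shARID1A cells, against 134 and 133 CPM in shERG cells (log2 difference 1.67 ± 0.05, edgeR adjusted p = 2.09e-18). KRT80 had 40.1 and 42.1 CPM in shARID1A cells, against 3.43 and 3.12 CPM in shERG cells (log2 difference 3.64 ± 0.1, edgeR adjusted p = 8.97e-19), with 33.4 and 35.0 CPM in shCt cells. KRT19, another keratin of simple epithelia, differed by 0.30 ± 0.05.

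Tight junction and desmosome genes counted 20 higher, 5 lower and 5 uncalled of 30. CLDN4, a claudin that seals epithelial sheets, had 1886 and 2025 CPM in shARID1A cells, against 196 and 189.9 CPM in shERG cells (log2 difference 3.34 ± 0.05, edgeR adjusted p = 2.08e-22), a 10.1-fold difference, with 485 and 476 CPM in shCt cells. CLDN3, its close relative, had 278 and 301 CPM in shARID1A cells, against 53.1 and 51.9 CPM in shERG cells (log2 difference 2.46 ± 0.05, edgeR adjusted p = 1.93e-20). PKP1, a desmosomal plaque protein, went against the list at 40.4 and 35.7 CPM in shARID1A cells, against 208 and 234 CPM in shERG cells (log2 difference -2.53 ± 0.06, edgeR adjusted p = 3.07e-19). Its shCt level was 287 and 293 CPM.

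Genes of intestinal-type secretory cells were higher in 19 of 23 cases, lower in 1 (2 without shERG replicate 2) and uncalled in 3, with 17 higher by at least 2-fold and a median of 2.99. REG4, a secreted lectin of enteroendocrine and goblet cells, had 4114 and 4388 CPM in shARID1A cells, against 81.4 and 68.9 CPM in shERG cells (log2 difference 5.82 ± 0.07, edgeR adjusted p = 1.02e-23). Its shCt libraries held 2658 and 2582 CPM. TSPAN1, a tetraspanin of secretory epithelia, had 224 and 220.1 CPM in shARID1A cells, against 4.67 and 5.16 CPM in shERG cells (log2 difference 5.50 ± 0.07, edgeR adjusted p = 1.02e-23). AGR2, a disulfide isomerase needed for mucin folding, had 1573 and 1685 CPM in shARID1A cells, against 257 and 233 CPM in shERG cells (log2 difference 2.73 ± 0.06, edgeR adjusted p = 7.93e-21). TFF1, a trefoil peptide that protects mucosa, had 67.1 and 83.2 CPM in shARID1A cells, against 4.61 and 4.07 CPM in shERG cells (log2 difference 4.10 ± 0.11, edgeR adjusted p = 1.21e-18), but shARID1A cells were below shCt cells, which had 124 and 140.1 CPM. Chosen after their values were seen, the mucin gene MUC13 had 17.3 and 17.1 CPM in shARID1A cells, against 0.994 and 0.872 CPM in shERG cells, and the adhesion gene CEACAM5 had 14.3 and 14.5 CPM in shARID1A cells, against 0.542 and 0.145 CPM in shERG cells. The 1 lower member was SI, the brush border disaccharidase, at 1.59 and 1.26 CPM in shARID1A cells, against 89.2 and 96.0 CPM in shERG cells. Against the shared shCt libraries the median of this list was 0.70 for shARID1A and -1.80 for shERG.

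Seminal and salivary secretory genes had the highest fitted median of the 41 lists, 6.32, or 4.32 with SEMG1, at 0 reads in shERG libraries, put at its bound of 3 counts per library. All 8 cystatins and semenogelins tested were higher, 7 by at least 2-fold. CST1, CST2 and CST4 encode secreted cysteine protease inhibitors that neighbour each other in 1 gene cluster. CST2 had 139.5 and 143 CPM in shARID1A cells, against 2.14 and 2.62 CPM in shERG cells (log2 difference 5.90 ± 0.09, edgeR adjusted p = 1.13e-22), with only 4.17 and 4.35 CPM in shCt cells. CST1 had 71.2 and 70.5 CPM in shARID1A cells, against 0.392 and 0.981 CPM in shERG cells (log2 difference 6.74 ± 0.14, edgeR adjusted p = 2.04e-20). Because 14.0% of the 75-base windows of CST1 occur also in CST4, part of their reads could have been exchanged. CST3, the ubiquitous cystatin C, differed by 0.37 ± 0.05 only. SEMG1, a structural protein of semen, had 17 and 17 reads in shARID1A libraries against 0 and 0 reads in shERG libraries, too few for a fold change.

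Of 13 chemokine and cytokine genes tested, 12 were higher and 1 was uncalled, and 9 of the 22 listed were below the filter. The uncalled one, CSF1, was called lower under 5 of the other settings, among them the fit without shARID1A replicate 1. CXCL1 and CXCL8, which draw neutrophils, had log2 differences of 3.38 ± 0.21 and 3.10 ± 0.27 at levels under 11 CPM. CXCL12, the ligand of CXCR4, had 27.7 and 24.5 CPM in shARID1A cells, against 0.151 and 0.145 CPM in shERG cells. Its receptor CXCR4 had 0.709 and 0.736 CPM in shARID1A cells, against 0.0301 and 0.109 CPM in shERG cells, so both ends of that axis were higher, from very low levels.

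Proliferation genes were lower after ARID1A knockdown than after ERG knockdown, and both knockdowns were below control. All 32 mitotic genes were lower, 30 of them by at least 2-fold, against 36.2% and 10.3% of all genes. Of 41 DNA replication genes 34 were lower, 6 were uncalled and 1 was higher. TOP2A, the topoisomerase that untangles sister chromatids, had 56.3 and 49.1 CPM in shARID1A cells, against 134 and 167 CPM in shERG cells (log2 difference -1.51 ± 0.08, edgeR adjusted p = 1.38e-13), with 379 and 349.8 CPM in shCt cells. The mitotic kinase gene PLK1, chosen after its values were seen, had 3.54 and 3.55 CPM in shARID1A cells, against 14.2 and 17.8 CPM in shERG cells (log2 difference -2.16 ± 0.13, edgeR adjusted p = 1.68e-12). MKI67, the Ki-67 gene and chosen likewise, had 22.8 and 19.7 CPM in shARID1A cells, against 44.6 and 48.7 CPM in shERG cells (log2 difference -1.13 ± 0.07, edgeR adjusted p = 2.73e-12), with 201 and 193 CPM in shCt cells. E2F1, the factor that switches on S-phase genes, was the 1 higher replication gene at 16.7 and 15.98 CPM in shARID1A cells, against 10.0 and 14.0 CPM in shERG cells (log2 difference 0.46 ± 0.11, edgeR adjusted p = 0.000801), and was named for being that exception. Without shERG replicate 1 the count of higher replication genes was 0, and without shERG replicate 2 it was 2. POLE, the leading strand polymerase, was not called, with 153 and 155 CPM in shARID1A cells, against 152 and 155 CPM in shERG cells (log2 difference 0.00 ± 0.05, edgeR adjusted p = 0.978).

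Set side by side against the shCt libraries they share, mitotic genes had a median of -2.77 in shARID1A cells and -0.90 in shERG cells, while replication genes had -2.57 in shARID1A cells and -1.74 in shERG cells. In sum, the 32 mitotic genes held 289.5 and 257.0 CPM in shARID1A cells, 761.2 and 928.1 CPM in shERG cells, and 1902 and 1838 CPM in shCt cells. Replicates of each group lay close together compared with these gaps.

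MYC, the transcription factor that drives ribosome production and cell growth, had 26.9 and 25.3 CPM in shARID1A cells, against 209.6 and 229 CPM in shERG cells (log2 difference -3.07 ± 0.06, edgeR adjusted p = 1.08e-20). Its shCt level was 245 and 268 CPM, so it was 8.39-fold lower in shARID1A cells than in shERG cells while its log2 difference from shCt was -0.23 in shERG cells. CDK inhibitors and G1 cyclins were mixed, with 6 of 17 higher, 5 lower and 6 uncalled. CDKN1A, the inhibitor p21 that halts the cycle in G1, had 331 and 384 CPM in shARID1A cells, against 76.6 and 69.7 CPM in shERG cells (log2 difference 2.29 ± 0.07, edgeR adjusted p = 2.67e-18), and shCt cells, at 193 and 178 CPM, lay between. CDKN1B, the inhibitor p27, had 119.6 and 113 CPM in shARID1A cells, against 151 and 144 CPM in shERG cells (log2 difference -0.34 ± 0.05, edgeR adjusted p = 2.53e-06), both above shCt cells at 74.2 and 69.5 CPM. CCND1, the G1 cyclin D1, differed by 0.30 ± 0.05. The p53 targets were split, 10 of 21 higher, 7 lower and 4 uncalled. BTG2, an antiproliferative p53 target, had 189.8 and 189 CPM in shARID1A cells, against 18.0 and 19.4 CPM in shERG cells (log2 difference 3.34 ± 0.06, edgeR adjusted p = 5.82e-22), whereas MDM2, the ligase that degrades p53, was not called, with 70.7 and 62.1 CPM in shARID1A cells, against 68.2 and 62.6 CPM in shERG cells (log2 difference 0.02 ± 0.06, edgeR adjusted p = 0.75).

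**Figure D3:**
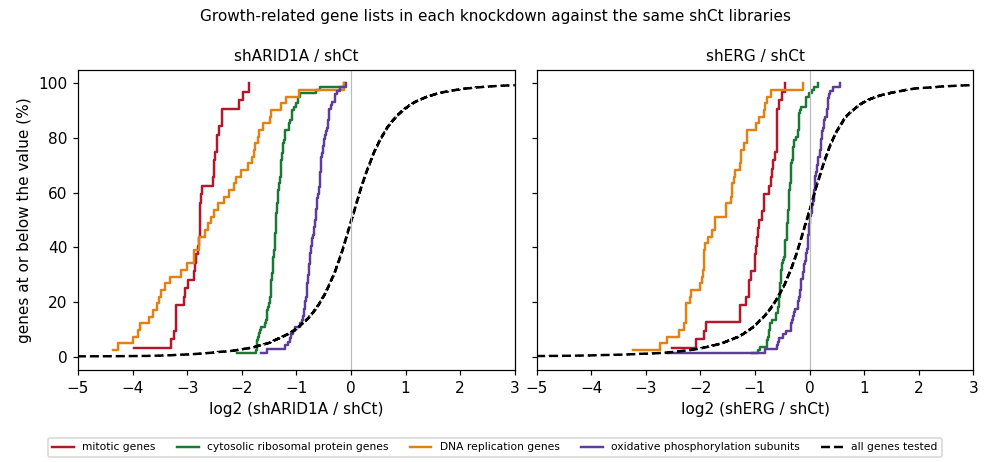
Cumulative share of genes (%) at or below each log2 difference for 4 growth-related lists (solid lines) and all genes tested (dashed), for shARID1A against shCt on the left and shERG against shCt on the right, with both panels sharing the shCt libraries. Mitotic genes centre on -2.77 in the left panel and -0.90 in the right, ribosomal protein genes on -1.37 and -0.40, and oxidative phosphorylation subunits on -0.65 and 0.01.

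Ribosomal protein genes, which encode the protein part of the cytosolic ribosome, formed a tight group. Of 82 tested, 80 were lower in shARID1A cells, 1 was higher and 1 was uncalled, with 37 lower by at least 2-fold. Their median was -0.94, and their summed level was 21280 and 22070 CPM in shARID1A cells, 39010 and 42510 CPM in shERG cells, and 56180 and 54040 CPM in shCt cells. RPS2, of the small subunit, had 254 and 273 CPM in shARID1A cells, against 734 and 804 CPM in shERG cells (log2 difference -1.55 ± 0.05, edgeR adjusted p = 5.28e-17). RPL35, of the large subunit, had 168 and 170.5 CPM in shARID1A cells, against 416 and 451 CPM in shERG cells (log2 difference -1.36 ± 0.05, edgeR adjusted p = 2.04e-16). RPL29, also of the large subunit, had 289 and 309 CPM in shARID1A cells, against 717 and 791 CPM in shERG cells (log2 difference -1.33 ± 0.05, edgeR adjusted p = 4.99e-16), with 871 and 866 CPM in shCt cells. The 1 higher member, RPS27L, a p53-induced paralogue chosen after its values were seen, had 48.1 and 47.3 CPM in shARID1A cells, against 35.8 and 38.1 CPM in shERG cells (log2 difference 0.37 ± 0.07, edgeR adjusted p = 3.85e-05). RPL22L1, another paralogue, was the uncalled one at 8.47 and 8.45 CPM in shARID1A cells, against 9.28 and 9.48 CPM in shERG cells. Many of these genes have processed pseudogenes, and 36.2% of the windows of RPS2 occur in another transcript, so single values are uncertain.

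Several measured facts moved with this list. Genes of up to 1139 bases, the shortest 10% of those tested, had a median of -0.12, or -0.06 without the ribosomal and respiratory genes, against -0.01 for all genes. MALAT1, a nuclear long noncoding RNA, had 4077 and 4165 CPM in shARID1A cells, against 1346 and 1162 CPM in shERG cells (log2 difference 1.72 ± 0.06, edgeR adjusted p = 1.69e-16). NEAT1, the scaffold RNA of nuclear paraspeckles, had 7481 and 7811 CPM in shARID1A cells, against 2759 and 2542 CPM in shERG cells (log2 difference 1.53 ± 0.11, edgeR adjusted p = 2.56e-11). GAPDH, a glycolytic enzyme often used as a reference, had 422 and 446 CPM in shARID1A cells, against 919 and 1016 CPM in shERG cells (log2 difference -1.16 ± 0.05, edgeR adjusted p = 1.06e-14), with 1440 and 1379 CPM in shCt cells. The part of gene length and of nuclear RNA content in the ribosomal difference was not tested.

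Promoters of the ribosomal genes, nearly all of which fell, are shown for 2 abundant members with the ETS core in capitals. Both were picked for holding the motif and for the size of their drop, so they are not typical of the list. The letters searched were CCGGAA on both strands, where TTCCGG is the reverse complement, in 250 bases before to 50 after the start, from RefSeq, GRCh38.p14. RPS18, of the small subunit and taken for its motifs, had 296 and 310.1 CPM in shARID1A cells, against 720.1 and 784 CPM in shERG cells (log2 difference -1.31 ± 0.05, edgeR adjusted p = 8.11e-16). The motif lay in 37 of the 67 ribosomal promoters in the table, which is 55.2%, in 27.0% of the 11801 tested genes with a promoter there, and in 17.6% of all 27305. In RPS18 the last capital run holds overlapping matches on both strands. A match describes letters and is no evidence of binding.
RPL29 (chr3:51995846-51996145, minus strand): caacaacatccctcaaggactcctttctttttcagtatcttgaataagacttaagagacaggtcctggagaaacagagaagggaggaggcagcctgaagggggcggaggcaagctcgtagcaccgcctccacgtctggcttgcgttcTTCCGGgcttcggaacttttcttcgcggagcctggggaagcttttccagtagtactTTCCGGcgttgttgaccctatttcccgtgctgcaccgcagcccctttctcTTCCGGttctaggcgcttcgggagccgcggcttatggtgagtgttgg
RPS18 (chr6:33271825-33272124, plus strand): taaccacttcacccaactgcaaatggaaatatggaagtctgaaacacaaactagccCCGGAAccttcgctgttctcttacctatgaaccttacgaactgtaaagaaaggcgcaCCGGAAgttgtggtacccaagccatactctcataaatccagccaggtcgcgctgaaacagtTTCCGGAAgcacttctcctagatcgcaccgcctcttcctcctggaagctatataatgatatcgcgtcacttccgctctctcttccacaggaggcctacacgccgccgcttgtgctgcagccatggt

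Nuclear genes for oxidative phosphorylation, the respiratory chain and ATP synthase, also leaned lower, with 68 of 74 lower, 3 higher and 3 uncalled, and a median of -0.73. Only 8 were lower by at least 2-fold. ATP5D, a subunit of the catalytic head of ATP synthase, had 30.1 and 34.0 CPM in shARID1A cells, against 116 and 115 CPM in shERG cells (log2 difference -1.85 ± 0.06, edgeR adjusted p = 2.56e-17), with 94.7 and 90.2 CPM in shCt cells. COX8A, a small cytochrome c oxidase subunit, went strongly the other way at 346 and 338 CPM in shARID1A cells, against 93.5 and 100.2 CPM in shERG cells (log2 difference 1.82 ± 0.05, edgeR adjusted p = 3.3e-18). In shCt cells COX8A had 620.3 and 568 CPM, above both knockdowns. HSPD1, the mitochondrial chaperonin HSP60, had 172 and 175 CPM in shARID1A cells, against 619 and 646 CPM in shERG cells (log2 difference -1.86 ± 0.05, edgeR adjusted p = 2.03e-19).

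Immediate early genes, the first transcripts that growth factor signalling switches on through ERK and serum response factor, were mostly higher in shARID1A cells. FOS and JUN proteins pair to form AP-1, and EGR1 is a zinc finger factor induced alongside them. Of 11 AP-1 genes tested, 10 were higher and 1 was uncalled, with 8 past 2-fold. With library totals as the scale the uncalled one, FOSL1, was called lower. FOS had 132 and 124 CPM in shARID1A cells, against 12.5 and 16.7 CPM in shERG cells (log2 difference 3.14 ± 0.08, edgeR adjusted p = 9.2e-19), with 9.02 and 8.74 CPM in shCt cells. FOSB had 22.5 and 22.8 CPM in shARID1A cells, against 2.5 and 3.78 CPM in shERG cells (log2 difference 2.87 ± 0.17, edgeR adjusted p = 6.63e-13). FOSL2, a FOS relative with slower turnover, had 152 and 147 CPM in shARID1A cells, against 27.8 and 25.9 CPM in shERG cells (log2 difference 2.47 ± 0.06, edgeR adjusted p = 5.55e-20). JUN had 438 and 452 CPM in shARID1A cells, against 162 and 176 CPM in shERG cells (log2 difference 1.40 ± 0.05, edgeR adjusted p = 1.42e-16), and JUNB had 184 and 188 CPM in shARID1A cells, against 59.1 and 54.5 CPM in shERG cells (log2 difference 1.71 ± 0.05, edgeR adjusted p = 9.31e-18). JUND, which is made more constantly, differed by only 0.21 ± 0.05. FOSL1, near the limit of detection, had 0.177 and 0.173 CPM in shARID1A cells, against 0.392 and 0.436 CPM in shERG cells (adjusted p = 0.0741 in edgeR).

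EGR1 had 251 and 235 CPM in shARID1A cells, against 20.8 and 22.6 CPM in shERG cells (log2 difference 3.49 ± 0.07, edgeR adjusted p = 1.23e-20). Its shCt level of 18.5 and 23.6 CPM overlapped the shERG libraries, and its log2 difference from shCt was 3.53 in shARID1A cells and 0.04 in shERG cells. KLF4, a Krüppel-like factor of differentiating epithelium, had 341 and 378 CPM in shARID1A cells, against 44.0 and 42.7 CPM in shERG cells (log2 difference 3.05 ± 0.06, edgeR adjusted p = 1.42e-21). ZFP36, which speeds decay of cytokine messages, had 102 and 107 CPM in shARID1A cells, against 24.6 and 22.9 CPM in shERG cells (log2 difference 2.14 ± 0.07, edgeR adjusted p = 1.84e-17). Of the 19 EGR and other early genes tested, 11 were higher and 8 were uncalled in the edgeR test, and 1 to 2 of them were called lower under 7 of the other settings. The 57.9% called, all higher, compares with 73.0% of all genes called and 36.8% called higher. The list median was 0.53, against -0.01 for all genes. SRF itself was not called at 42.6 and 43.0 CPM in shARID1A cells, against 44.8 and 49.6 CPM in shERG cells (log2 difference -0.14 ± 0.06, edgeR adjusted p = 0.0543).

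The EGR1 promoter carries the sites through which serum response factor is known to act, and it is printed with its CArG boxes in capitals. The search was for CC, then 6 letters each A or T, then GG, a motif that reads alike on both strands. Among all promoters searched, 1.29% hold one, against 2 of the 13 early genes with an entry, EGR1 and SRF, and 0 of 9 AP-1 genes. The window covers 250 bases before to 50 after the start only.
EGR1 (chr5:138465229-138465528, plus strand): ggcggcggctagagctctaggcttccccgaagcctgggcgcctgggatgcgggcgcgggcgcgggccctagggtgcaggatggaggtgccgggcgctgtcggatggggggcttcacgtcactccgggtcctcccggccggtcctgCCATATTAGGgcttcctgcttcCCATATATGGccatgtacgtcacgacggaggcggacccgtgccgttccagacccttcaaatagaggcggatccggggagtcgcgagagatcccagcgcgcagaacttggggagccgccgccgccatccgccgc

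**Figure D4:**
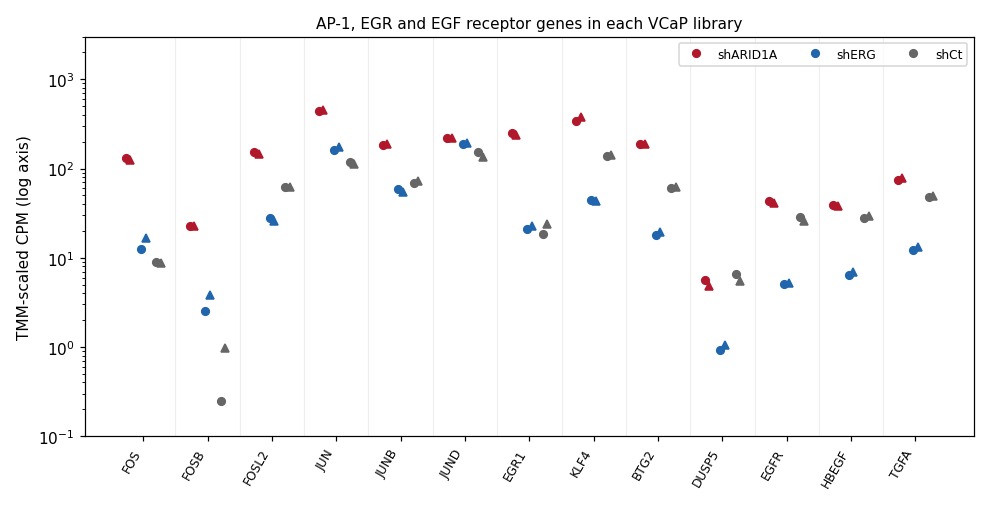
TMM-scaled CPM on a log axis for AP-1, early response and EGF receptor genes in each VCaP library, with shARID1A left, shERG in the middle and shCt right, circles for replicate 1 and triangles for replicate 2. EGR1 sits at 251 and 235 CPM in shARID1A cells, 20.8 and 22.6 CPM in shERG cells and 18.5 and 23.6 CPM in shCt cells, whereas EGFR is lowest in shERG cells.

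The receptors EGFR and ERBB3 and the ligands TGFA and HBEGF were higher in shARID1A cells, but came from a list that was split. Of 22 ERBB, FGF and insulin family genes 8 were higher, 9 lower and 5 uncalled. By at least 2-fold 7 were higher and 5 lower, and the lowest log2 difference was -4.59. Only higher members are described here, and a link to the early genes was not tested. EGFR had 43.2 and 40.8 CPM in shARID1A cells, against 5.09 and 5.16 CPM in shERG cells (log2 difference 3.04 ± 0.09, edgeR adjusted p = 1.04e-17), with 28.8 and 25.8 CPM in shCt cells. ERBB3, the kinase-poor partner receptor, had 87.7 and 82.4 CPM in shARID1A cells, against 28.0 and 27.3 CPM in shERG cells (log2 difference 1.62 ± 0.06, edgeR adjusted p = 1.9e-16). TGFA, an EGFR ligand, had 73.9 and 79.2 CPM in shARID1A cells, against 12.1 and 13.1 CPM in shERG cells (log2 difference 2.61 ± 0.07, edgeR adjusted p = 1.2e-18). HBEGF, another ligand of EGFR, had 39.5 and 38.5 CPM in shARID1A cells, against 6.42 and 6.87 CPM in shERG cells (log2 difference 2.56 ± 0.09, edgeR adjusted p = 5.4e-17). For EGFR, TGFA and HBEGF the larger departure from shCt was in shERG cells, at -2.41, -1.95 and -2.12, against 0.63, 0.66 and 0.44 in shARID1A cells. ERK feedback genes had 7 of 13 higher, 3 lower and 3 uncalled. DUSP5, a nuclear ERK phosphatase, had 5.63 and 4.76 CPM in shARID1A cells, against 0.934 and 1.05 CPM in shERG cells (log2 difference 2.40 ± 0.22, edgeR adjusted p = 1.31e-09). DUSP4, a related phosphatase, had 15.5 and 9.40 CPM in shARID1A cells, against 4.43 and 4.65 CPM in shERG cells (log2 difference 1.48 ± 0.17, edgeR adjusted p = 7.89e-08). SPRY1, a Sprouty inhibitor of receptor signalling, was lower at 12.5 and 13.6 CPM in shARID1A cells, against 20.3 and 16.2 CPM in shERG cells (log2 difference -0.50 ± 0.1, edgeR adjusted p = 0.000199).

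Genes of the TGF-beta superfamily were called in both directions. This family signals through SMAD proteins, and BMP members switch on the ID genes. INHBA, the activin A subunit, had 2.90 and 1.95 CPM in shARID1A cells, against 22.4 and 19.04 CPM in shERG cells (log2 difference -3.07 ± 0.16, edgeR adjusted p = 6.5e-14), and TGFB3 had 6.09 and 5.80 CPM in shARID1A cells, against 53.2 and 44.0 CPM in shERG cells (log2 difference -3.03 ± 0.11, edgeR adjusted p = 1.16e-16). In shCt cells both were low, INHBA at 1.503 and 1.05 CPM and TGFB3 at 7.60 and 6.64 CPM. GDF15, a distant member released under stress, had 65.4 and 74.4 CPM in shARID1A cells, against 3.22 and 3.42 CPM in shERG cells (log2 difference 4.40 ± 0.1, edgeR adjusted p = 3.08e-20). GREM1, a secreted BMP antagonist, had 58.1 and 55.9 CPM in shARID1A cells, against 9.91 and 7.70 CPM in shERG cells (log2 difference 2.68 ± 0.09, edgeR adjusted p = 2.88e-17). ID4, a repressor of helix-loop-helix factors, had 1089 and 1118 CPM in shARID1A cells, against 279 and 284 CPM in shERG cells (log2 difference 1.97 ± 0.05, edgeR adjusted p = 1.16e-19). ID1 and ID3 differed by 1.25 ± 0.05 and 1.42 ± 0.05. Of 31 members, 20 were higher, 6 lower and 5 uncalled.

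Matrix proteases and their inhibitors were mostly higher, while collagen and basement membrane genes were split. Of 21 matrix proteases and inhibitors tested, 18 were higher, 1 lower and 2 uncalled, with 0 lower without shARID1A replicate 2. SERPINE2, an inhibitor of thrombin and plasminogen activators, had 53.2 and 56.9 CPM in shARID1A cells, against 4.01 and 4.94 CPM in shERG cells (log2 difference 3.63 ± 0.1, edgeR adjusted p = 1.29e-18), with 3.13 and 3.46 CPM in shCt cells. ADAMTSL1, a matrix glycoprotein related to ADAMTS proteases, had 36.1 and 34.6 CPM in shARID1A cells, against 1.05 and 0.836 CPM in shERG cells (log2 difference 5.20 ± 0.14, edgeR adjusted p = 5.52e-19), while shCt cells at 40.5 and 35.4 CPM were like the shARID1A cells in level. TGM2, the transglutaminase that cross-links matrix proteins, had 465 and 459 CPM in shARID1A cells, against 45.2 and 47.9 CPM in shERG cells (log2 difference 3.31 ± 0.05, edgeR adjusted p = 3.03e-22). Collagen and basement membrane genes split 12 higher, 9 lower and 1 uncalled of 22. Mesenchymal genes counted 8 higher, 4 lower and 3 uncalled of 15, and the lower count was 2 when any 1 shARID1A or shERG library was left out and 1 under DESeq2. S100A4, a calcium-binding protein of motile cells, had 7.87 and 7.41 CPM in shARID1A cells, against 0.0602 and 0.109 CPM in shERG cells (log2 difference 6.46 ± 0.33, edgeR adjusted p = 7.76e-14). VIM, the mesenchymal filament vimentin, was almost absent, with 1 and 0 reads in shARID1A libraries against 21 and 10 reads in shERG libraries.

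Among 28 semaphorin, plexin and neuropilin genes, 15 were higher, 7 lower and 6 uncalled, the list median was 0.27, and only 3 were lower without shERG replicate 1. NRP2, a coreceptor for semaphorins and VEGF-C, had 21.7 and 22.4 CPM in shARID1A cells, against 0.874 and 1.74 CPM in shERG cells (log2 difference 4.11 ± 0.17, edgeR adjusted p = 2.29e-15). PLXNA4, a semaphorin receptor, had 18.9 and 17.2 CPM in shARID1A cells, against 1.26 and 1.31 CPM in shERG cells (log2 difference 3.81 ± 0.15, edgeR adjusted p = 1.12e-15). SEMA6B, a transmembrane semaphorin, had 3.86 and 3.51 CPM in shARID1A cells, against 20.1 and 20.0 CPM in shERG cells (log2 difference -2.44 ± 0.12, edgeR adjusted p = 3.15e-14). SCG2, a granin of secretory vesicles, had 63.1 and 63.1 CPM in shARID1A cells, against 3.98 and 4.18 CPM in shERG cells (log2 difference 3.95 ± 0.1, edgeR adjusted p = 2.81e-19), while the neuroendocrine list as a whole counted 7 higher, 6 lower and 4 uncalled of 17.

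Stress and metal genes added further large differences. Of 16 NRF2 targets, the antioxidant programme, 11 were higher, 2 lower and 3 uncalled, and the lower count became 4 with library totals as the scale. HMOX1, the enzyme that opens the haem ring, had 17.2 and 18.3 CPM in shARID1A cells, against 1.45 and 1.31 CPM in shERG cells (log2 difference 3.68 ± 0.16, edgeR adjusted p = 3.96e-15). NQO1, a quinone reductase, had 40.5 and 41.6 CPM in shARID1A cells, against 5.60 and 6.03 CPM in shERG cells (log2 difference 2.82 ± 0.09, edgeR adjusted p = 1.22e-17). GCLC, the catalytic subunit of glutathione synthesis, was not called, with 70.1 and 73.1 CPM in shARID1A cells, against 74.7 and 71.6 CPM in shERG cells (log2 difference -0.03 ± 0.05, edgeR adjusted p = 0.588). SLC39A2, a zinc importer of the ZIP family, had 294 and 335 CPM in shARID1A cells, against 7.80 and 9.12 CPM in shERG cells (log2 difference 5.22 ± 0.09, edgeR adjusted p = 7.26e-22), with 13.9 and 10.3 CPM in shCt cells. SLC30A4, a zinc exporter into vesicles and secretions, had 294 and 276 CPM in shARID1A cells, against 586 and 595 CPM in shERG cells (log2 difference -1.05 ± 0.05, edgeR adjusted p = 3.88e-15). Zinc genes as a list counted 13 higher, 6 lower and 10 uncalled of 29.

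Sterol genes were mostly higher. Of 29 genes for cholesterol synthesis, uptake and efflux, 19 were higher, 8 lower and 2 uncalled. HMGCS1, an early enzyme of the mevalonate pathway, had 594 and 682 CPM in shARID1A cells, against 260.1 and 248 CPM in shERG cells (log2 difference 1.33 ± 0.06, edgeR adjusted p = 4.54e-15). SC5D, a late desaturase of sterol synthesis, had 1889 and 1989 CPM in shARID1A cells, against 615 and 530.2 CPM in shERG cells (log2 difference 1.76 ± 0.06, edgeR adjusted p = 3.7e-17). INSIG1, the sterol sensor partner that SREBP2 induces, had 262 and 308 CPM in shARID1A cells, against 84.9 and 76.5 CPM in shERG cells (log2 difference 1.82 ± 0.07, edgeR adjusted p = 6.54e-16). APOE, a carrier of exported cholesterol, had 5.88 and 4.72 CPM in shARID1A cells, against 28.7 and 26.2 CPM in shERG cells (log2 difference -2.36 ± 0.12, edgeR adjusted p = 5.77e-14), with 2.63 and 3.54 CPM in shCt cells. ABCA1, the efflux pump chosen after its values were seen, had 7.94 and 7.19 CPM in shARID1A cells, against 23.6 and 19.1 CPM in shERG cells (log2 difference -1.5 ± 0.11, edgeR adjusted p = 7.43e-11).

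The list of hypoxia and glycolysis genes was split, with 12 higher, 13 lower and 1 uncalled of 26, and a median of -0.07. By at least 2-fold 4 were higher and 3 lower. Only higher members are described in this paragraph, while GAPDH, given above, was lower. ADM, the vasodilator adrenomedullin, had 278 and 291 CPM in shARID1A cells, against 35.9 and 32.2 CPM in shERG cells (log2 difference 3.06 ± 0.06, edgeR adjusted p = 1.58e-21). EGLN3, an oxygen-sensing prolyl hydroxylase, had 449.9 and 483 CPM in shARID1A cells, against 62.4 and 54.7 CPM in shERG cells (log2 difference 2.99 ± 0.06, edgeR adjusted p = 1.63e-20). CA12, a membrane carbonic anhydrase, had 439 and 442 CPM in shARID1A cells, against 79.2 and 87.5 CPM in shERG cells (log2 difference 2.40 ± 0.05, edgeR adjusted p = 1.63e-20).

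Other lists held calls in both directions. WNT genes counted 15 higher, 13 lower and 9 uncalled of 37, with a median of -0.02. In that list the receptor FZD4 had 297 and 274 CPM in shARID1A cells, against 68.4 and 64.2 CPM in shERG cells (log2 difference 2.11 ± 0.05, edgeR adjusted p = 2.63e-19), and the ligand WNT5A had 6.98 and 6.58 CPM in shARID1A cells, against 34.5 and 31.1 CPM in shERG cells (log2 difference -2.27 ± 0.1, edgeR adjusted p = 6.74e-15). Notch genes counted 7 higher and 8 lower of 18, and interferon-stimulated genes 12 higher and 7 lower of 25, or 4 lower without shERG replicate 1. Polycomb and histone methyltransferase genes counted 8 higher and 9 lower of 21, and the higher count was 5 without shARID1A replicate 2. EZH2, the Polycomb methyltransferase, had 8.72 and 9.27 CPM in shARID1A cells, against 19.01 and 21.6 CPM in shERG cells (log2 difference -1.17 ± 0.09, edgeR adjusted p = 2.27e-10), and CBX2, a reader of its mark, had 14.2 and 13.4 CPM in shARID1A cells, against 34.2 and 36.7 CPM in shERG cells (log2 difference -1.36 ± 0.08, edgeR adjusted p = 5.39e-13). Apoptosis regulators counted 5 higher, 4 lower and 4 uncalled of 13. Of 22 ATF4 targets 14 were higher and 7 lower, with a median of 0.51. Of 15 chaperones 8 were higher and 6 lower. Of 16 fatty acid genes 8 were higher and 4 lower, or 7 lower with library totals as the scale.

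Genes reported as raised in ERG-positive prostate tumours gave 11 higher, 5 lower and 2 uncalled of 18, with medians of -0.38 for shARID1A and -0.98 for shERG against the shared shCt libraries. Of the 18, 13 were called below shCt in shARID1A cells and 14 in shERG cells. Between the knockdowns 6 were higher and 2 lower by at least 2-fold, and only a higher member is described. ARHGDIB, an inhibitor of small GTPases, had 30.2 and 27.9 CPM in shARID1A cells, against 9.34 and 9.01 CPM in shERG cells (log2 difference 1.66 ± 0.08, edgeR adjusted p = 6.17e-14), with 40.6 and 41.4 CPM in shCt cells. Of 9 thyroid hormone genes tested, 3 were higher, 2 lower and 4 uncalled, with a median of 0.32. The lower count was 1 under DESeq2, without shARID1A replicate 2 and without shERG replicate 1. Only the lowest member, DIO2, is described, and its shARID1A level was near the limit of detection. DIO2, the deiodinase that activates thyroid hormone, had 0.213 and 0.130 CPM in shARID1A cells, against 20.2 and 18.2 CPM in shERG cells (log2 difference -6.74 ± 0.24, edgeR adjusted p = 1.42e-16), and shCt cells, at 0.13 and 0.322 CPM, were as low as the shARID1A libraries.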

How the data were processed

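RNA sequencing of polyA RNA gave 1 table of genes per library. The deposited read counts are whole numbers per gene, and every test used them. RPKM values, as deposited, equal those counts divided by the authors' gene length and library total to within 5.03e-06 of their value. Per the submitters' processing notes STAR 2.3.1 and hg19 were used. How reads were counted over genes, and whether by strand, is not given in the sources used here, so overlapping and antisense genes cannot be told apart.

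With R 4.3.3 and edgeR 4.0.16 all 6 VCaP libraries were fitted together after filterByExpr and TMM scaling (factors 0.938 to 1.077), with 3 residual degrees of freedom. The quasi-likelihood F test was two-sided, with Benjamini-Hochberg adjustment over 16791 genes, and was tested on simulated counts. With 2 libraries a group, p-values measure the spread between duplicates. The replicate numbers were not treated as pairs, because same-numbered libraries did not deviate together (correlations -0.009 to 0.036). Alternatives were DESeq2 1.42.0, other scalings, filters and designs, and leaving out each library.

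The comparison, the 41 lists (1027 members, 1026 found, 946 tested) and the genes named were chosen with earlier results of these data known. Ribosomal and oxidative phosphorylation members were taken by name pattern, without pseudogenes of the latter. Named genes were both targets, the 15 largest differences each way among called genes that averaged 10 CPM or more and did not overlap between groups, up to 8 called and 2 uncalled members per list, and all tested BAF, ETS, lineage and AP-1 genes. Genes called in opposite directions against shCt in the 2 knockdowns were also named, taking those with the largest difference between the knockdowns. Not all of them are described, and a few are not reported here. Windows of 75 bases were compared between GENCODE transcripts.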

Additional observations from a re-analysis of the deposited data

How the results depend on the processing

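Under scaling by RLE or by library totals, no filter, a fit of the compared groups alone, a replicate block and DESeq2, the genes called between shARID1A and shERG numbered 11017 to 12541. The replicate block gave 12143, and since the replicate numbers pair no libraries it is given only as a count. Leaving out each library in turn gave 11187 to 12346 called. ERG and ARID1A kept their direction and call under every setting listed. Of 444 named genes, 400 kept their direction and their side of the threshold throughout. POLE, uncalled in the main test, reversed with library totals as the scale, to a log2 difference of -0.11 (edgeR adjusted p = 0.0438), and that scale moved the median of all genes to -0.123. Low genes such as GATA3 and BATF lost their call under DESeq2. Depth limits genes under about 1 CPM, and duplicates limit every p-value.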

Other observations

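Further genes with large differences, all lower in shARID1A cells, were of varied function. MEX3A, an RNA-binding protein of intestinal stem cells, had 8.08 and 7.49 CPM in shARID1A cells, against 66.1 and 76.1 CPM in shERG cells (log2 difference -3.18 ± 0.09, edgeR adjusted p = 1.35e-18). DDN, the cytoskeletal protein dendrin of neurons and podocytes, had 0.921 and 1.34 CPM in shARID1A cells, against 18.0 and 21.7 CPM in shERG cells (log2 difference -4.15 ± 0.16, edgeR adjusted p = 7.91e-16), with 24.3 and 24.1 CPM in shCt cells. NEB, the giant thin-filament protein nebulin of muscle, had 3.37 and 3.64 CPM in shARID1A cells, against 27.4 and 21.1 CPM in shERG cells (log2 difference -2.80 ± 0.14, edgeR adjusted p = 5.31e-14). ALB, the serum carrier albumin, had 4.71 and 4.59 CPM in shARID1A cells, against 28.4 and 31.4 CPM in shERG cells (log2 difference -2.68 ± 0.1, edgeR adjusted p = 3.28e-16), with 50.5 and 46.9 CPM in shCt cells. PRR11, a cell cycle gene of late S phase to mitosis, had 2.41 and 3.73 CPM in shARID1A cells, against 16.8 and 21.4 CPM in shERG cells (log2 difference -2.66 ± 0.15, edgeR adjusted p = 4.82e-13), with 33.4 and 34.5 CPM in shCt cells. These 5 genes were also named on condition that the groups did not overlap, which 85.9% of all genes tested met. NEB differed from the others in that its shCt level, 5.26 and 4.55 CPM, was near that of shARID1A cells.

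Prostate and nuclear long noncoding RNAs, MALAT1 and NEAT1 among them, divided, with 5 of 11 higher, 4 lower and 2 uncalled in shARID1A cells. SCHLAP1, a noncoding RNA known to oppose SWI/SNF in prostate cancer cells, was not called, at 1.70 and 2.17 CPM in shARID1A cells, against 2.44 and 2.62 CPM in shERG cells (log2 difference -0.40 ± 0.23, edgeR adjusted p = 0.124).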
